A study of Mus musculus with 2 samples.

Results

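Calcineurin, the nuclear factors of activated T cells (NFAT) and calcium/calmodulin-dependent kinase II (CaMKII) carry calcium signals to proteins and genes. Their transcripts were examined for sites of N6-methyladenosine (m6A), a methyl mark on adenosines inside messenger RNA, in pancreatic islets of young mice. The genes were the calcineurin subunits Ppp3ca, Ppp3cb, Ppp3cc and Ppp3r1, the factors Nfatc1, Nfatc2 and Nfatc3, and the kinase subunits Camk2b, Camk2d and Camk2g. Each of these 10 genes was looked up by symbol, gene identifier and synonym in the authors' deposited list of m6A sites. A site was listed on 6 of the 10, with 8 of the 8987 sites of the list, and 4 genes had no site in it.

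The list compares 1 m6A immunoprecipitate library with 1 input library of islets from 129sv mice at 2 weeks of age. The labels name no genetic change, no treatment and no number of animals. RNA fragments were pulled down with a polyclonal antibody against m6A, and the input was sequenced without this step. With 1 library on each side there are no replicates, so no value below has an error or a test, and read depth is unknown.

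When calcium rises in a cell, calmodulin binds it and activates both calcineurin and CaMKII. Calcineurin is a phosphatase of a catalytic A subunit and a calcium-binding B subunit, and it removes phosphates from NFAT factors, which then enter the nucleus. In mouse beta cells, calcineurin and NFAT are known for promoting growth and the expression of genes for insulin and secretory granules in early postnatal life. CaMKII is a multimeric serine/threonine kinase that is activated when glucose-stimulated calcium entry drives insulin secretion.

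Of the 6 genes with a site, 3 had it at or beside an annotated transcription start. Ppp3ca and Nfatc1 could not be judged, since no annotated start was available for them. The promoter windows of Camk2b, Ppp3r1 and Nfatc3 are printed because the sites reach into them. Each window runs from 250 bases before the annotated start to the end of the first 50 transcribed bases, 300 bases in all, from the RefSeq annotation of GRCm38.p6. Capitals mark the bases that the m6A site covers, and the start is at base 251. The Camk2b window is chr11:6065699-6065998 on the minus strand, the Ppp3r1 window is chr11:17159048-17159347 on the plus strand and the Nfatc3 window is chr8:106059340-106059639 on the plus strand.
Camk2b: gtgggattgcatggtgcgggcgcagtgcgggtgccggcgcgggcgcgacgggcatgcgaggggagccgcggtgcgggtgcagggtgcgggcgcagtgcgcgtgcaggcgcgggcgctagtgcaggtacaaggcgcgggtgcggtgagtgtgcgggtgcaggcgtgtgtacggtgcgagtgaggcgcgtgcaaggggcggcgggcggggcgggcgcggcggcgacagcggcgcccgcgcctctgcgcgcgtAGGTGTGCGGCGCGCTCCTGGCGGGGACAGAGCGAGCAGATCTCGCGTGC
Ppp3r1: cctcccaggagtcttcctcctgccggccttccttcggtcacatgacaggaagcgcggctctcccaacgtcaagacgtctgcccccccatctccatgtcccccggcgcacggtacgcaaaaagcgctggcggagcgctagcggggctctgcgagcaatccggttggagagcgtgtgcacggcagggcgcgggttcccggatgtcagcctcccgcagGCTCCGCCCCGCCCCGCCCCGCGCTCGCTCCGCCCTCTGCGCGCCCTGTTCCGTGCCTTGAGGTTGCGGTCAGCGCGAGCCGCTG
Nfatc3: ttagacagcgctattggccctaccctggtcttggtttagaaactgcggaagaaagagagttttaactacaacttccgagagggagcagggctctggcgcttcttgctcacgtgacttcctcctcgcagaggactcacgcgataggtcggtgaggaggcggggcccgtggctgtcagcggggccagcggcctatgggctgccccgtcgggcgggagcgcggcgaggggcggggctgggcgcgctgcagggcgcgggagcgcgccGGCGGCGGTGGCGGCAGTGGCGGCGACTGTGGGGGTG

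In the Camk2b window the site covered exactly the 50 bases from the annotated start on, and no base before it. In the Ppp3r1 window it covered 85 bases and began at base 216, so that 35 of its bases lay before the annotated start. In the Nfatc3 window it covered the last 37 bases and began at base 264, which is 13 bases past the start. Nfatc3 has a second window for a start further upstream, which no site touched. The 4-base core GGAC, the most frequent sequence around m6A, was searched on both strands. On the sense strand, which reads as the RNA does and is the strand printed above, it stood at base 275 of the Camk2b window, inside the site, and at base 130 of the Nfatc3 window, outside it. The Ppp3r1 window held none on that strand and 1 on the other. Over all 32851 windows of the annotation, 65.6% held GGAC on the sense strand and 87.7% on either strand. In 18.9% of windows it stood wholly after the start, as in Camk2b, and in 19.2% of the 1734 windows that any site of the list overlapped. The motif does not overlap itself, and a match is no evidence of a methylated base. Which base of a site carries the mark, be it the first transcribed base or one further inside, was not tested.

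All 3 windows were rich in G and C. The share was 77.3% in Camk2b, 70.7% in Ppp3r1 and 68.3% in Nfatc3, against a median of 52.7% over all windows and 65.3% over those that a site of the list overlapped. CpG dinucleotides numbered 51, 36 and 32, against a median of 7 over all windows and 26 over the overlapped ones. Windows without a site were not all poorer in G and C: the Camk2d window stood at 70.3% and the Nfatc2 windows at 68.0% and 62.0%. The Ppp3cb window was at 51.0% and the upstream Nfatc3 window at 48.7%. The windows table covered 6 of the 10 genes; the other 4 were not examined in this way.

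By site, enrichment was highest on Camk2b, at a fold of 20.3, and lowest at the weaker Nfatc1 site, at 3.83. By the strongest fold of each gene with a site, Ppp3ca was lowest at 5.74, beside 5.81 for Nfatc1. Each site's fold, score and false discovery rate was taken from the authors' deposited list. The fold is linear and sets the immunoprecipitate against what the peak caller expected as background. The quartiles of the fold over all 8987 sites were 5.47 and 9.87 and the median was 7.13. The 8 sites had a median of 6.885. Of these, 4 lay below the median of all sites and 2 above its upper quartile, Camk2b and Ppp3r1.

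**Figure D1:**
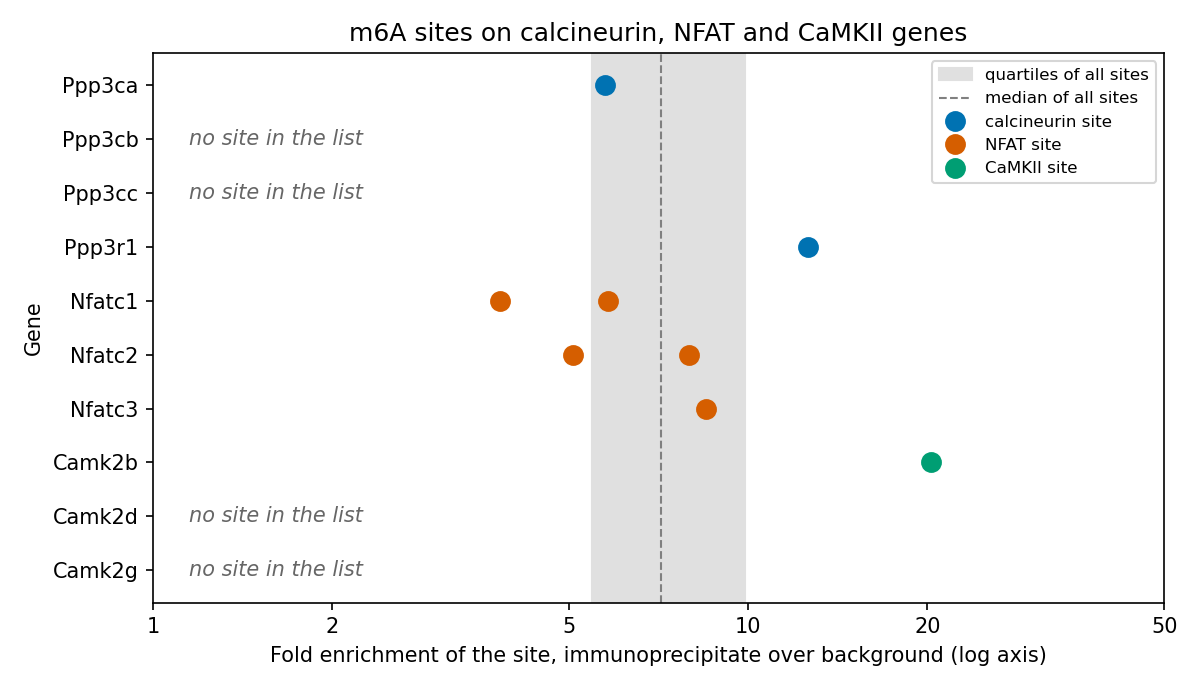
Fold enrichment of each m6A site (horizontal axis, logarithmic) for the 10 genes (vertical axis). Each point is 1 site, the grey band runs between the quartiles of all 8987 sites (5.47 to 9.87), and the dashed line is their median (7.13). Camk2b at 20.3 and Ppp3r1 at 12.6 lie to the right of the band, and 4 genes have no site in the list.

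Calcineurin A, the catalytic subunit, is made from 3 genes, and a site was listed on Ppp3ca alone. This gene for the alpha isoform had a single site of 836 bases on chromosome 3, from 136670066 to 136670901, with a fold of 5.74. That fold stood at percentile 29.7 of all sites, and the gene ranked 3910 of 4953 genes by strongest fold. The site began 352 bases inside the lower end of the annotated gene, which spans 268014 bases, so its middle lay at 0.287% of the span. The direction of transcription of Ppp3ca is not given in the tables used here. Ppp3cb and Ppp3cc, the genes for the beta and gamma isoforms, had no site, and no site assigned to any other gene lay within their spans.

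Calcineurin B, the regulatory subunit that binds calcium and is required for the activity of every calcineurin A, had the stronger site of the phosphatase. Its gene Ppp3r1 had 1 site of 280 bases on chromosome 11, from 17159263 to 17159542, with a fold of 12.6. The gene ranked 1032 of 4953. This is the site that begins 35 bases before the annotated start in the window above. The authors assigned it to an Ensembl transcript, ENSMUST00000102880, whereas the gene span used here comes from RefSeq. The fold of Ppp3r1 was above that of Ppp3ca, but without replicates the difference could not be tested.

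The NFAT genes Nfatc1, Nfatc2 and Nfatc3 each had a site, and 2 of them had more than 1. NFAT factors keep a regulatory region that calcineurin dephosphorylates ahead of a Rel-like DNA-binding domain. Nfatc3 had a single site of 391 bases on chromosome 8, from 106059603 to 106059993, with a fold of 8.5, at 1.37% of the gene span from its 5′ end. Nfatc2 had a site of 203 bases on chromosome 2, from 168536203 to 168536405, with a fold of 7.96. Its other site covered 1036 bases, from 168570598 to 168571633, with a fold of 5.07. Both Nfatc2 sites were internal, with their middles at 52.2% and 24.4% of the span from the 5′ end, and the nearest annotated starts were 53960 and 18732 bases away.

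Nfatc1, like Nfatc2, had 2 sites of unequal length, and neither reached an end of the gene span. The shorter site had 56 bases on chromosome 18, from 80653506 to 80653561, and a fold of 5.81. Its length stood at percentile 1.41 of all sites, while the shorter Nfatc2 site stood at 47.7. The longer Nfatc1 site had 1102 bases, from 80697555 to 80698656, and a fold of 3.83, at percentile 3.99 of all sites. Counted from the upper end of the gene, the middles of the Nfatc1 sites lay at 55.7% and 14.0% of a span of 106867 bases. The direction of Nfatc1 is not given in the tables used here, so these shares are by coordinate. In both genes the longer site had the lower fold.

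The 3 longest of the 8 sites, on Nfatc1, Nfatc2 and Ppp3ca, were also the 3 with the lowest folds, between 3.83 and 5.74. Their lengths stood at percentiles 91.5, 90.6 and 87.5 of all sites. The median length was 335.5 bases over the 8 sites and 211 bases over the list, whose quartiles were 139 and 449 bases. The 2 orders were not simply reversed, since the shortest site, 56 bases on Nfatc1, had a fold of 5.81. Which exons the sites fall in was not analysed here.

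**Figure D2:**
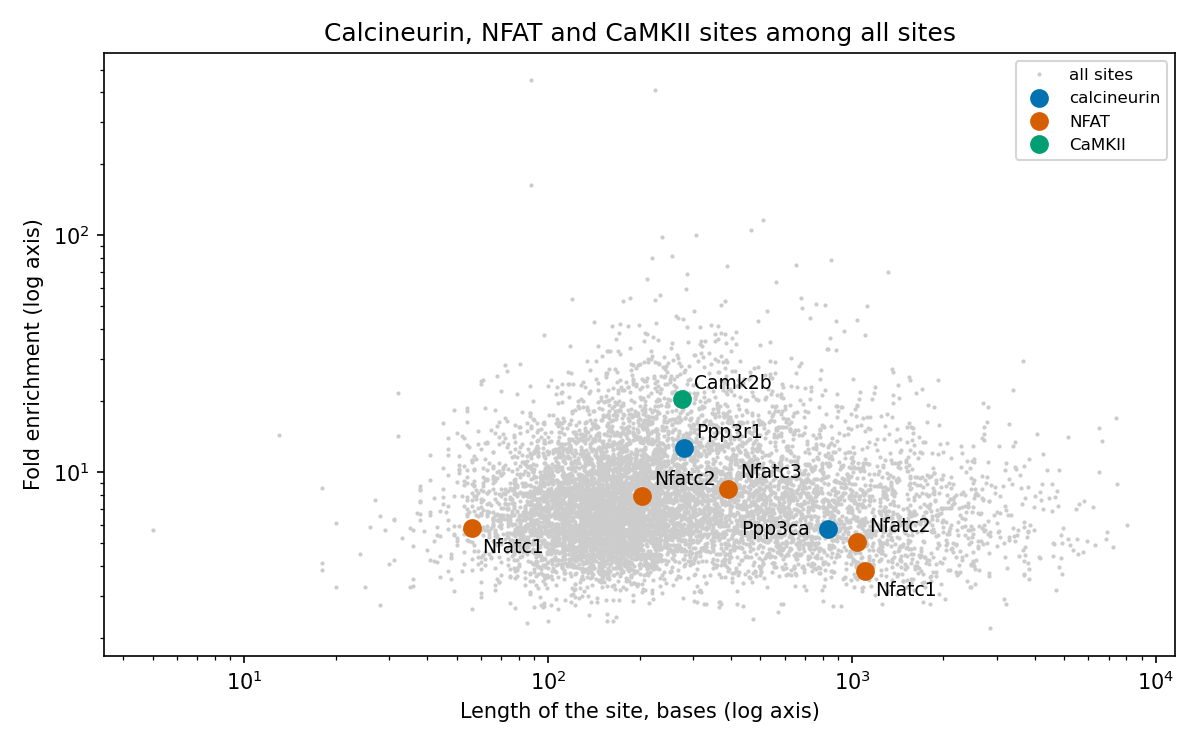
Length of each site in bases (horizontal axis, logarithmic) against its fold enrichment (vertical axis, logarithmic), with all 8987 sites in grey and the 8 sites of calcineurin, NFAT and CaMKII genes in colour. The long sites of Nfatc1, Nfatc2 and Ppp3ca lie low at folds of 3.83, 5.07 and 5.74, and Camk2b and Ppp3r1 combine 275 and 280 bases with folds of 20.3 and 12.6.

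CaMKII had a site on 1 of its 3 genes examined. Camk2b, which encodes the beta subunit, had a site of 275 bases on chromosome 11, from 6065474 to 6065748, with a fold of 20.3. The gene ranked 317 of 4953 by strongest fold, at percentile 93.6. The upper end of the site is the annotated start base itself, and transcription runs from there towards lower coordinates, so the site took up the first 275 bases of genomic sequence after that start. The gene span goes on for another 609 bases upstream. Of 7207 sites on genes with a promoter window, 916 (12.7%) began at an annotated start in the same way, and 1407 (19.5%) covered one. Camk2d and Camk2g, which encode the delta and gamma subunits, had no site, and no site of another gene lay within their spans.

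Placed along their genes, the sites fell into a group within 1.37% of 1 end and a group further inside. Of the 5 sites on genes with a promoter window, 3 overlapped such a window, those of Camk2b, Ppp3r1 and Nfatc3. Over the list, 22.5% of sites on genes with a window did so. With 5 sites this is a description, and the comparison was chosen after their positions were seen. The middles of these 3 sites lay between 0.254% and 1.37% of the span from the 5′ end. Over the 7197 sites with a known direction, 31.2% had their middle in the first 20% of the span and 23.7% in the last 20%. None of the 5 sites lay in the last 20% of its gene.

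**Figure D3:**
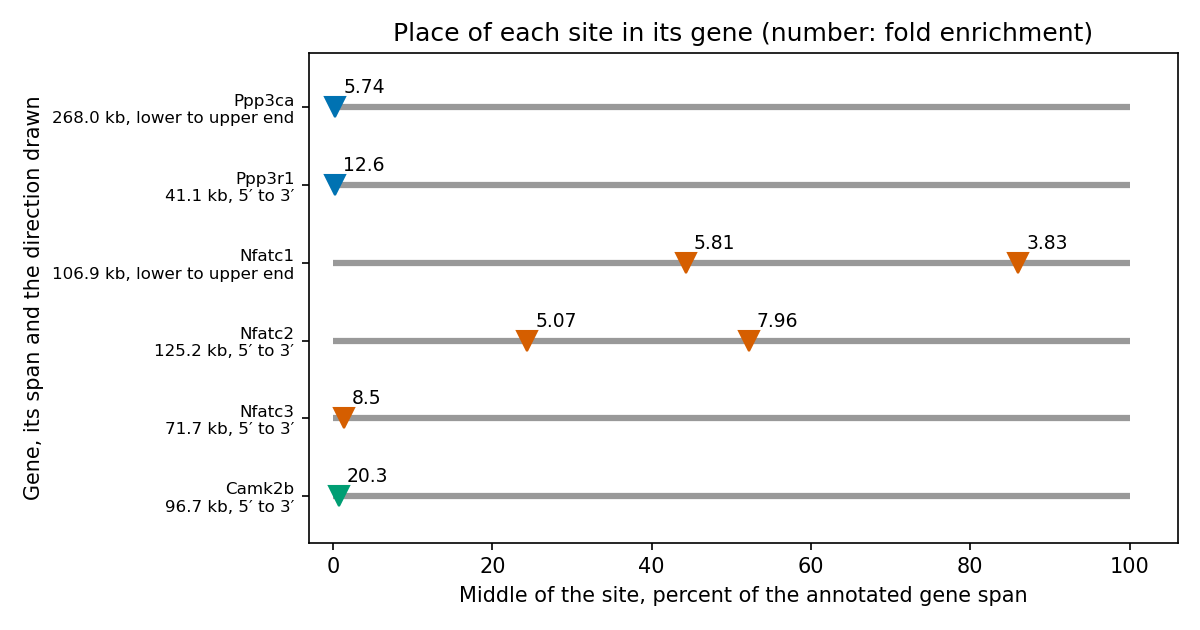
Middle of each site as a percent of the annotated gene span (horizontal axis), for the 6 genes with a site, each drawn as a grey line of equal length whatever its span. Triangles are sites with their fold beside them; genes of known direction run 5′ to 3′ and Ppp3ca and Nfatc1 from lower to upper coordinate. The sites of Ppp3r1, Nfatc3, Camk2b and Ppp3ca lie within 1.37% of 1 end, and those of Nfatc1 and Nfatc2 lie further inside. The longer Nfatc1 site is the nearest of these to an end, at 14.0% of the span from the upper end.

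A site was listed on 6 of the 10 genes (60%), against 22.2% of all 21900 protein-coding genes. The 10 were chosen with earlier results of these data known. With Ppp3r2, Nfatc4, Nfat5 and Camk2a added, the counts were 2 of 5 calcineurin genes, 4 of 5 NFAT genes and 1 of 4 CaMKII genes. The 10 are long genes, and long genes carried sites more often. The 10 spans ran from 41083 bases in Ppp3r1 to 268014 bases in Ppp3ca. In the 3 groups of 10 by span that hold them, 32.6%, 39.9% and 42.1% of protein-coding genes had a site. Camk2d, with 250840 bases, is nearly as long as Ppp3ca and had none. The level of each gene in the input was not available, and genes that islets barely express cannot show a site. In a bulk sample, fewer cells of a type and less RNA per cell cannot be told apart. With input level and read depth unknown, a gene without a listed site is not shown to be unmethylated.

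The 8 sites also differed in their score. The score rises by 10 for each power of 10 by which the p of the peak caller falls, and 100 stands for a p of 1e-10. Camk2b scored 1101.28, Ppp3r1 307.41, and the Nfatc2 sites 221.78 and 213.22. The scores were 97.99 for Ppp3ca, 82.59 and 75.55 for Nfatc1 and 74.69 for Nfatc3. The median over the list was 132.33. A score of at least 100 was reached by 4 sites on 3 of the 10 genes, against 15.4% of protein-coding genes. A fold of at least 5 was reached on 6 of the 10 genes, against 19.7% of protein-coding genes.

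The caller's false discovery rate was 53.61% for Camk2b, 95.84% for Ppp3r1 and 100% for the other 6 sites. By site, 6 of the 8 had a rate of 100%, close to the share of 74.3% over the whole list. By gene, the 2 below 100% compare with 7.29% of protein-coding genes that had such a site. Only 22.2% of protein-coding genes had any site. The lowest rate of the whole list was 27.16%, so no site of it met a limit of 5%. The rate followed the score: the lowest score with a rate below 100% was 286, and apart from 3 sites the highest score with a rate of 100% was 285.66. Ppp3r1 lay just above that step, and the stronger Nfatc2 site below it.

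The order by fold and the order by score were not the same. Nfatc3 had the lowest score of the 8 sites but the third highest fold, 8.5. Nfat5, a relative that responds to osmotic stress and is not controlled by calcineurin, was the clearest case among the NFAT factors. Its single site covered 2503 bases on chromosome 8, from 107367049 to 107369551, and combined a fold of 4.13 with a score of 1455.84 and a rate of 45.14%. Nfatc4, the remaining calcineurin-controlled factor, had no site, nor did Camk2a and Ppp3r2, the remaining CaMKII and calcineurin B genes.

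Among 10 genes examined for calmodulin, the calcium sensor that activates both enzymes, and for other calmodulin-dependent kinases, 4 had a site. The share over all protein-coding genes was 22.2%. The median strongest fold of the 4 genes was 13.785. The kinase Camk1 had the highest, 16.61. The calmodulin gene Calm2 had 2 sites with a strongest fold of 15.96, and the calmodulin gene Calm3 had 2 with a strongest fold of 11.61. The kinase Camk4 had 1 site with a fold of 8.17. Camk1d, Camk1g and the activating kinases Camkk1 and Camkk2 were without one. The median of the strongest fold over all 4953 genes with a site was 8.1, and it was 8.23 over the 6 calcineurin, NFAT and CaMKII genes.

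Against 22.2% of all protein-coding genes, 3 of 11 genes listed as calcineurin inhibitors and anchors had a site. They were Fkbp1a (15.32), which inhibits calcineurin when bound to tacrolimus, the calcineurin-binding protein Cabin1 (8.65, 3 sites), and Tacc1 (16.46, 5 sites), which is best known as a centrosome protein and whose place in this list is doubtful. Without Tacc1, an alternative chosen after seeing the data, the count was 2 of 10. The regulators of calcineurin Rcan1, Rcan2 and Rcan3 and the anchor Akap5 had none. Of the CaMKII inhibitors, Camk2n2 had a site of fold 4.08 with a score of 50.6, close to the lowest score of the list, 50, and Camk2n1 had none.

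Genes for kinases that phosphorylate NFAT again, and so oppose calcineurin, were listed with those for NFAT export or retention. Of these 12, 5 had a site, against 22.2% of all protein-coding genes, with a median strongest fold of 7.63. The 12 include Nron, a long noncoding RNA gene without a site, which that share does not cover. Casein kinase 1 delta, Csnk1d, led with 16.63, followed by Dyrk2 (14.82), Csnk1e (7.63) and Dyrk1a (6.75). Gsk3b, Csnk1a1, Dyrk1b and the nuclear exporter Xpo1 had none. Of the 5 sites of this list on genes with a promoter window, 4 overlapped one. For all list genes other than the 10, the count was 14 of 64, close to the 22.5% of the whole list.

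Genes for calcium entry and store release, which lie upstream of calmodulin, had sites on 9 of 17. The share was 22.2% over all protein-coding genes and 42.1% in the group with the longest spans. This list was not matched for span. Its median strongest fold was 7.03. The strongest were the channel subunit Cacna1a (16.07), the store sensor Stim1 (14.59) and the inositol trisphosphate receptors Itpr3 (13.15, 5 sites) and Itpr1 (11.32). Ryr2, the calcium pump gene Atp2a2 and the channel subunits Cacnb2 and Cacnb3 had none. None of the 19 sites of this list on genes with a promoter window overlapped one, against 22.5% over all sites on such genes. Many of the 19 share a gene, with 5 on Itpr3, 4 on Itpr2 and 4 on Cacna1c, so the count is a description. It was 7 of 22 for the list of other substrates and 0 of 4 for calcineurin inhibitors and anchors.

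Downstream, 12 of 18 genes for other substrates of calcineurin or CaMKII had a site, with a median strongest fold of 11.25. They included the histone deacetylase Hdac4 (18.46, 4 sites), which CaMKII phosphorylates, the fission protein Dnm1l (16.99), which calcineurin dephosphorylates, the transcription factor Mef2c (15.14) and the vesicle protein Syn1 (13.55). Crtc2, Mef2d, Hdac5 and Foxo1 were without one. Of 20 beta cell genes described as lying downstream of calcineurin and NFAT, 10 had a site, with a median of 8.955. The granins Chga (27.48) and Chgb (21.38), Top2a (13.3) and Mafa (12.52) had the highest folds, and Ins1, Ins2, Iapp and Scg2 had none. Across the 94 list genes other than the 10, which include the noncoding Nron, 45 (47.9%) had a site, with a median strongest fold of 9.81. The share over all protein-coding genes was 22.2%, and it rose with the span of the gene to 42.1% in the group with the longest spans, so the counts of these lists, which were not matched for span, are descriptions.

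**Figure D4:**
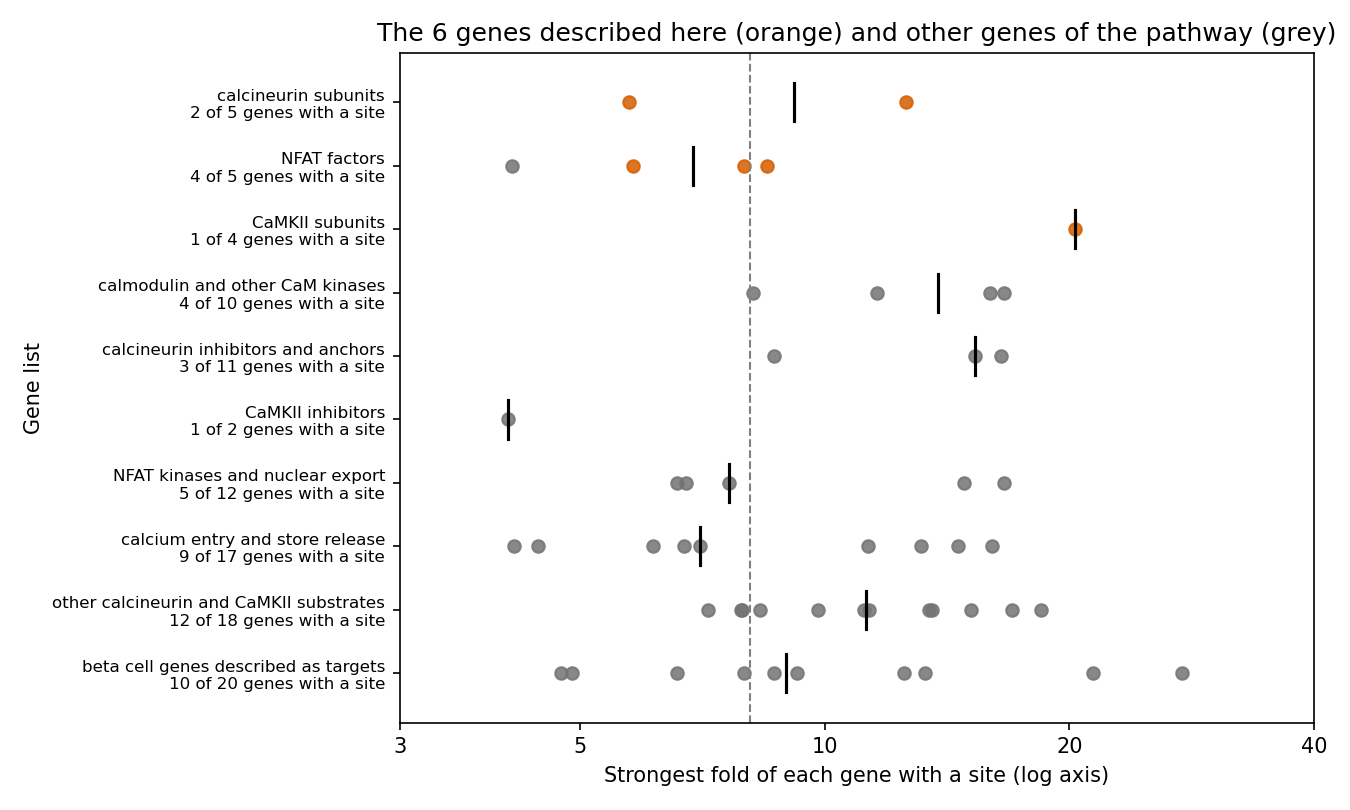
Strongest fold of each gene with a site (horizontal axis, logarithmic) in 10 lists of the pathway (vertical axis, with the number of genes with a site). Orange points are calcineurin, NFAT and CaMKII genes described here, and grey points are other genes. Short black lines are list medians, and the dashed line is the median of all genes with a site (8.1). Camk2b at 20.3 is the orange point furthest right, with the grey points of Chga (27.48) and Chgb (21.38) beyond it. The NFAT factors lie between 4.13 and 8.5.

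The pathway labels in the authors' deposited table join the 6 genes in different ways. All 6 carried the labels Wnt signalling and oxytocin signalling, and the 5 calcineurin and NFAT genes also that of T cell receptor signalling. Camk2b alone carried the insulin secretion label, where it ranked 4 of 27 genes by strongest fold. It was also the only one of the genes under labels far from islets, such as olfactory transduction and melanogenesis. The glucagon signalling label was shared by Camk2b, Ppp3ca and Ppp3r1. Among the 39 genes with a site and the calcium signalling label, whose median strongest fold was 9.8, Camk2b ranked 4, Ppp3r1 12 and Ppp3ca 34. Among 36 genes with the T cell receptor label, Ppp3r1 ranked 8, Nfatc3 19, Nfatc2 21, Nfatc1 30 and Ppp3ca 31.

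NFAT factors are also prominent in leukocytes and endothelial cells, which islet preparations can hold. None of 8 leukocyte markers (Ptprc, Cd3e, Cd4, Cd8a, Cd79a, Lyz2, Adgre1 and Csf1r) had a site, while 5 of 5 endothelial markers did, Pecam1 with the strongest fold of 9.54. Of 8 beta cell markers, Mafa alone had one. A site was also listed on 2 of 6 acinar, 2 of 4 duct, 1 of 4 fibroblast and 1 of 4 alpha cell markers. It was listed on 0 of 2 delta cell markers and 0 of 4 neural and Schwann markers. The share over all protein-coding genes was 22.2%, so these small counts are descriptions. A site list gives no RNA level, so the islet label could not be checked against these markers, and which cells the calcineurin, NFAT and CaMKII transcripts came from was not tested.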

How the data were processed

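m6A sites came from 1 immunoprecipitate and 1 input library. Per the labels' protocols and the submitters' processing notes, cutadapt 1.9.3 trimmed the reads, HISAT2 2.0.4 aligned them, MACS called the sites, and scripts of the authors placed them on transcripts. The labels name both HG19 and mm10; 99.8% of 8942 matched sites overlapped their gene in GRCm38.p6, so coordinates are GRCm38, printed from 1.

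The score (-10 times log10 of p), the fold (a linear ratio) and the false discovery rate (a percent, by its name and values) are as deposited, per the file headers, and were not recomputed. In all 8987 sites the deposited length in bases equals the end minus the start as deposited, so deposited starts were read as counted from 0 and raised by 1. Depth is unknown, and no test was possible.

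Sites were matched to RefSeq genes by identifier, then symbol, then synonym with Python 3.11.15 and pandas 2.3.3, checked on simulated data. The 45 unmatched sites stayed out of counts of protein-coding genes. Under their deposited gene names they are among the 4953 genes used for ranks, percentiles and the median strongest fold. The 10 genes and the lists were chosen with earlier results of these data known; 1 list gene is not reported here and is left out of the list counts. Named from each list were up to 4 genes with the highest strongest fold and up to 4 without a site, in list order. Alternatives were a fold of at least 5, a p of at most 1e-10, a rate below 100%, overlap with the gene span, merged intervals, the median fold, the fold of the best-scoring site and the 3′ edge of a site.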

Additional observations from a re-analysis of the deposited data

How the results depend on the processing

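The number of calcineurin, NFAT and CaMKII genes with a site was 3 with p of at most 1e-10 and 2 with a false discovery rate below 100%, in place of 6, and the number of sites was 4 and 2 in place of 8. Both limits remove sites from the list as a whole. A fold of at least 5 left 6 genes and 7 sites. Overlap with the gene span and merged intervals left 6 genes and 8 sites; no intervals were joined, so merging says nothing about stability. The median strongest fold, 8.23, was 7.508 with the median fold of each gene and 16.45 with a rate below 100%, where Camk2b and Ppp3r1 were the genes left. It was 8.23 with the fold of the best-scoring site, under which Nfatc1 went from 5.81 to 3.83. Of the 94 other pathway genes, 45 had a site, 39 with a fold of at least 5, 35 with p of at most 1e-10 and 21 with a rate below 100%. The number of sites in the first 20% of the span was 3 by their middle and by their 3′ edge. No paired analysis was possible because there is 1 library of each kind. Sequence of the sites beyond the promoter windows, exons and transcript regions were not analysed here. With depth unknown, no fold has an error.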
